A study of Mus musculus with 11 samples.

Results

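Transcripts of 8 complement genes were followed in microglia sorted from aged mice: the 3 chains of C1q (C1qa, C1qb and C1qc), the components C3 and C4b, the stabilizer properdin (Cfp) and the anaphylatoxin receptors C3ar1 and C5ar1. They were taken by gene symbol from a table of 14739 genes, all 8 were in it, all 8 had reads in each of the 11 libraries, and all 8 passed the filter on low values. Bulk RNA sequencing was done on Tmem119+ microglia of the cerebrum of C57BL/6 mice, and the question was how loss of a copy of Csf1r, of Csf2 or of both alters old microglia. The product of Csf1r is the CSF-1 and IL-34 receptor that microglia need to survive, and Csf2 encodes the cytokine GM-CSF. The Csf1r_het group had 3 libraries from Csf1r+/- mice, aged 20, 24 and 21 months in replicates 1, 2 and 3. The Csf2het group had 3 libraries from Csf2+/- mice, all of 21 months. The Dhet group had 2 libraries from Csf1r+/-; Csf2+/- mice, aged 21 and 24 months. The WT group had 3 libraries from wild-type mice, all of 21 months. The labels name no Cre driver or promoter behind these alleles, and they do not say whether a library was made from a single mouse.

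Complement is a cascade of plasma and tissue proteins that tag targets for removal. C1q, built from the A, B and C chains, starts the classical pathway by binding to immune complexes, dying cells or synapses. C4 and then C3 are cleaved downstream of it, and C3 fragments stay on the target, where phagocyte receptors such as CR3 recognize them. Properdin stabilizes the convertase of the alternative pathway, which amplifies C3 cleavage. The small fragments C3a and C5a act on the receptors encoded by C3ar1 and C5ar1. In the brain, microglia are the main source of C1q, and C1q, C3 and CR3 take part in the removal of synapses.

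The deposited values are gene counts that the authors scaled by library size factors, called normalized counts here. Depth ran from 21037819 to 53081638 reads, so that 1 read was worth 0.479 to 1.48 normalized counts, and the lowest number of reads for any of the 8 genes in any library was 61. The share of haemoglobin genes was highest in Csf1r_het replicate 2 (58.8%) and lowest in WT replicate 1 (16.1%), and Csf1r_het replicate 2 also had the most genes at 0 (15.6%, against 4.98% in the library with the fewest). Csf1r had 17017 to 40567 normalized counts in Csf1r_het, 53873 to 66762 in Csf2het, 30254 to 40151 in Dhet and 41261 to 93319 in WT, and Csf2 was not analysed here. All 12 microglia markers on the list used had reads in every group. So did all 10 monocyte markers and all 10 neutrophil markers. Dhet replicate 2 went against the other libraries in sex-linked genes, with 4.02 normalized counts of Xist and 717 of Ddx3y, against at least 3011 of Xist and at most 16.3 of Ddx3y in each other library.

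The genes of the C1q chains lie next to each other, and their levels moved together. Start regions are shown for C1qb and C1qc, with that of C3 beside them. On mouse chromosome 4 (mm10, reverse strand), C1qa (ENSMUSG00000036887.5) spans 136895917 to 136898803, C1qc (ENSMUSG00000036896.5) spans 136889804 to 136893065 and C1qb (ENSMUSG00000036905.8) spans 136880129 to 136886187. The cluster covers 18675 bases, with gaps of 2851 and 3616 bases, and no other gene of the table lies inside it. C3 (ENSMUSG00000024164.15) is on chromosome 17 from 57203970 to 57228136. RefSeq start regions (GRCm38.p6) were at hand for 6 of the 8 genes, but not for C1qa or C4b. The stretches below end before the first annotated exon base, run 5′ to 3′ on the reverse strand, and carry matches to letters searched on both strands in capitals. The search itself covered all 250 bases before each RefSeq start, including bases that other transcripts place in an exon and that are not shown.
C1qb, chr4:136886201-136886450: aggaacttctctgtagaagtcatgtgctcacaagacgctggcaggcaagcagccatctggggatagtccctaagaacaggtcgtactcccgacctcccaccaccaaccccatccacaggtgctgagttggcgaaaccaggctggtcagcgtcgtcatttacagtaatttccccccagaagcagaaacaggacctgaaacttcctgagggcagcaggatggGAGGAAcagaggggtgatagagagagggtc
C1qc, chr4:136893066-136893164: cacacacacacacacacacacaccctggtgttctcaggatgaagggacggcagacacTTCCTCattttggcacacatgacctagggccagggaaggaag
C3, chr17:57228137-57228386: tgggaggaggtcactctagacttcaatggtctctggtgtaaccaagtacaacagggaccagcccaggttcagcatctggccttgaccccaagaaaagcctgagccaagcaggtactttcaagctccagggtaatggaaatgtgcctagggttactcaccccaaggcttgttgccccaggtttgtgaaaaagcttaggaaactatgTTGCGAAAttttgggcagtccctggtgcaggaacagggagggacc

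In C1qb the capitals mark GAGGAA, core letters bound by the myeloid factor PU.1, from 30 to 25 bases before the RefSeq start. In C1qc they mark the same letters on the opposite strand, TTCCTC, from 193 to 188 bases before the start. In C3 they mark TTGCGAAA, a match to TTGCNNAA, which C/EBP factors bind, from 45 to 38 bases before the start. GAGGAA was in 23.3% and TTGCNNAA in 9.57% of the 32817 RefSeq start regions, and a match says nothing of binding. The composite ETS and IRF motif, found in 2.30% of the start regions, matched none of the 6. Cfp, C3ar1 and C5ar1 held no match to the 3 motifs in these 250 bases.

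C1q was the most abundant part of the system in every group. Per kilobase of the longest coding transcript, the mean over the 11 libraries was 112412 normalized counts for C1qb, 75886 for C1qc and 55491 for C1qa, and C5ar1 came next with 1245. C3ar1 (923), Cfp (629), C3 (264) and C4b (65.3 normalized counts per kilobase) followed. By mean normalized count without regard to length, the C1q chains ranked 27, 35 and 52 of all genes of the table.

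The 3 C1q chains were higher in the means of every heterozygous group than in WT, by 2.21 to 2.60 times in Csf1r_het, 2.61 to 2.77 times in Csf2het and 1.86 to 1.99 times in Dhet. C1qa, the A chain, had 60008, 66847 and 70898 normalized counts in the Csf1r_het libraries, 78409, 84990 and 70231 in Csf2het, 76911 and 36878 in Dhet, and 32158, 11935 and 45549 in WT. All libraries of Csf1r_het and Csf2het lay above all WT libraries, while Dhet replicate 2 lay among the WT values. WT replicate 2 was the lowest library for all 3 chains.

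C1qb, the B chain, had 115398, 184942 and 154077 normalized counts in Csf1r_het, 152031, 157293 and 175300 in Csf2het, 149366 and 82168 in Dhet, and 61672, 27844 and 85259 in WT. As for C1qa, both single heterozygotes were clear of WT and Dhet overlapped it. C1qc, the C chain, had 95676, 113743 and 110733 normalized counts in Csf1r_het, 105825, 125389 and 146126 in Csf2het, 104210 and 65487 in Dhet, and 49287, 25923 and 61794 in WT. For this chain the Dhet libraries, too, were above every WT library.

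**Figure D1:**
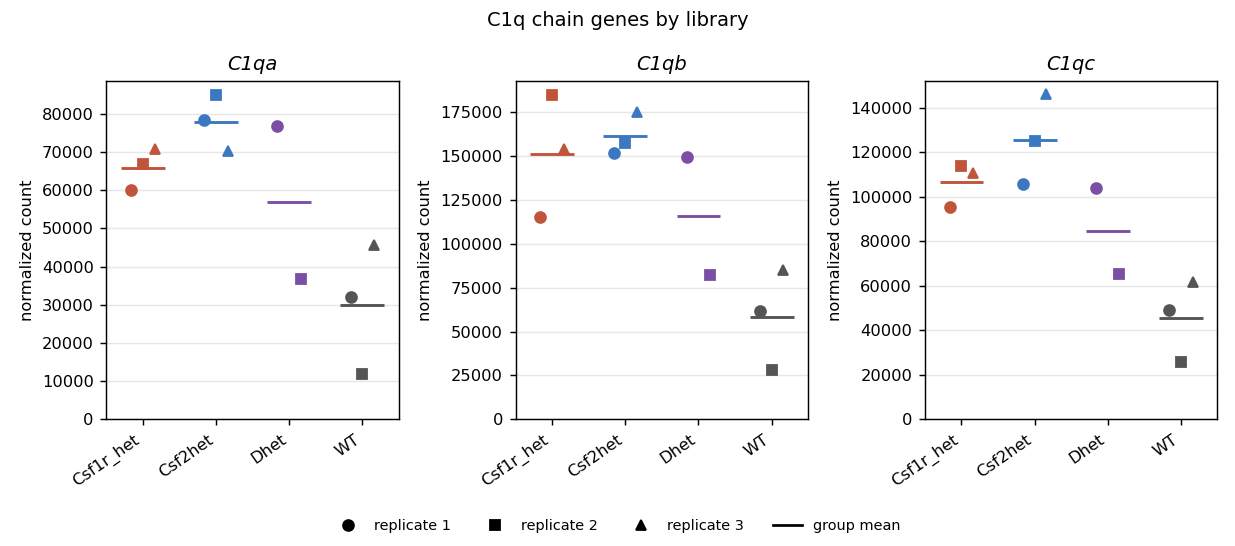
Normalized counts (vertical axis, linear from 0) of C1qa, C1qb and C1qc in each library of Csf1r_het, Csf2het, Dhet and WT, with marker shapes for replicates and lines for group means. The libraries of Csf1r_het and Csf2het lie above all 3 WT libraries in each panel, and WT replicate 2 is the lowest point.

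No C1q chain passed the test in limma at an adjusted p of 0.05. Against WT, C1qa differed by a log2 fold change of 1.34 (SE 0.52, limma adjusted p = 0.231) in Csf1r_het, 1.58 (SE 0.52, limma adjusted p = 0.120) in Csf2het and 1.04 (SE 0.58, limma adjusted p = 0.575) in Dhet. C1qb differed by 1.50, 1.61 and 1.07 and C1qc by 1.31, 1.54 and 0.95 in the same 3 comparisons, with limma adjusted p from 0.114 to 0.591. The 95% intervals of C1qc ran from 0.24 to 2.38 in Csf1r_het, from 0.47 to 2.61 in Csf2het and from -0.25 to 2.14 in Dhet. With DESeq2 on the recovered reads C1qb (adjusted p = 0.0132) and C1qc (adjusted p = 0.00969) passed in Csf1r_het and C1qa (0.0195), C1qb (0.00481) and C1qc (0.000772) passed in Csf2het, while edgeR called none of them. Over all genes DESeq2 called 5.67% in Csf1r_het and 8.47% in Csf2het, and edgeR 0.730% and 3.34%. Without WT replicate 2 the differences from WT fell to 0.78 for C1qa, 1.04 for C1qb and 0.95 for C1qc in Csf1r_het and to 1.02, 1.15 and 1.18 in Csf2het, and none passed. In Dhet they were 0.48, 0.61 and 0.58 without WT replicate 2, 0.51, 0.64 and 0.61 without Dhet replicate 1, and 1.57, 1.50 and 1.28 without Dhet replicate 2.

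The proportions of the chains to each other varied much less than their levels. The ratio of C1qb to C1qa was 2.13 ± 0.30 (SD) over the 11 libraries, with a range of 1.85 to 2.77, while C1qa itself varied 7.12-fold between its lowest and highest library. The ratio of C1qc to C1qa was 1.63 ± 0.28 and that of C1qb to C1qc 1.32 ± 0.15. The group means of C1qb to C1qa were 2.29 ± 0.43 in Csf1r_het, 2.10 ± 0.35 in Csf2het, 2.09 ± 0.20 in Dhet and 2.04 ± 0.25 in WT (SD, n = 3, 3, 2 and 3), and the ranges of all groups overlapped. As a share of all counts without haemoglobin, the chains together made up 1.34 ± 0.034% in Csf1r_het, 1.50 ± 0.26% in Csf2het, 1.19 ± 0.31% in Dhet and 0.592 ± 0.36% in WT. With haemoglobin reads set aside, the mean of each heterozygous group was thus still above that of WT.

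C1q is made by microglia, and general microglia markers also stood higher outside WT. Of the 12 microglia markers, 11 had a positive log2 fold change against WT in each of the 3 heterozygous groups, and in Csf2het 3 passed the test in limma (2 in edgeR and 6 in DESeq2). Over all genes tested limma called 0.809% higher in Csf2het. The sum of the markers without Csf1r was 276958 to 326440 normalized counts in Csf1r_het, 421031 to 570650 in Csf2het, 368442 to 447460 in Dhet and 105835 to 294277 in WT. Per count of that sum, the C1q chains together had 0.979 to 1.12 counts in Csf1r_het, 0.644 to 0.854 in Csf2het, 0.501 to 0.739 in Dhet and 0.621 to 0.654 in WT. Set against these markers, Csf1r_het lay above all other libraries and the ranges of Csf2het and Dhet overlapped that of WT. With Csf1r kept in the sum, the values were 0.922 to 1.01 in Csf1r_het, 0.585 to 0.745 in Csf2het, 0.463 to 0.678 in Dhet and 0.447 to 0.538 in WT, so that Csf2het, too, was clear of WT. These ratios were chosen after the data were seen and carry no test, and in bulk samples fewer cells of a type and less RNA per cell cannot be told apart. Markers of the choroid plexus, an epithelium that makes cerebrospinal fluid, were also higher in sum in both single heterozygotes: in units of 1000 normalized counts the sum was 905 to 1601 in Csf1r_het, 935 to 1219 in Csf2het, 287 to 646 in Dhet and 439 to 698 in WT. This sum leans on Ttr, its most abundant gene. Of these 8 markers, 7 had a positive log2 fold change in Csf1r_het, while Aqp1 averaged 272 there and 472 in WT. Folr1 passed in limma in Csf1r_het (log2 fold change 1.85, adjusted p = 0.0471), where edgeR called 0 of the 8 and DESeq2 2. The part of either marker list in the C1q values was not tested.

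C3, the component on which all pathways meet, was lower in every heterozygous group than in WT. It had 824, 560 and 1015 normalized counts in Csf1r_het, 297, 417 and 222 in Csf2het, 1384 and 621 in Dhet, and 3448, 4261 and 1858 in WT. No library of a heterozygous group reached the lowest WT library. The WT mean was 3.99 times that of Csf1r_het, 10.2 times that of Csf2het and 3.18 times that of Dhet.

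C3 fell in Csf2het, with a log2 fold change of -3.31 (SE 0.43, limma adjusted p = 0.00124). It also fell in Csf1r_het, by 1.95 on the log2 scale (SE 0.43, limma adjusted p = 0.0478). In Dhet its log2 fold change of -1.70 (SE 0.48) did not pass in limma (adjusted p = 0.221), with a 95% interval of -2.74 to -0.65. The call in Csf2het was kept in all 11 fits that left out a library, with limma adjusted p of at most 0.0125. The call in Csf1r_het lay close to the threshold: it was kept in 2 of those 11 fits (without WT replicate 3 or Dhet replicate 2) and lost in the others, with limma adjusted p from 0.0389 to 0.206, and it was made by DESeq2 (adjusted p = 0.00207) but not by edgeR (adjusted p = 0.0636).

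Properdin, the product of Cfp on chromosome X (20925454 to 20931555), was lowest in Csf2het. Cfp had 1196, 216 and 829 normalized counts in Csf1r_het, 211, 302 and 95.4 in Csf2het, 1327 and 1696 in Dhet, and 2531, 1111 and 1810 in WT. The Csf2het libraries were all below the lowest WT library, Csf1r_het overlapped WT at its upper end and both Dhet libraries lay within the WT range. Its log2 fold change was -3.23 in Csf2het (SE 0.61, limma adjusted p = 0.0116), so Cfp fell there, and the WT mean was 8.96 times the Csf2het mean. In Csf1r_het it was -1.52 (limma adjusted p = 0.243) and in Dhet -0.20 (limma adjusted p = 0.942), neither of which passed, and the value in Csf1r_het was -0.79 without Csf1r_het replicate 2. The call in Csf2het was lost without WT replicate 1 (limma adjusted p = 0.0690) or without Csf2het replicate 3 (limma adjusted p = 0.0546).

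C4b, a form of C4 (chromosome 17, 34728380 to 34743882), was the lowest of the 8. It had 191, 751 and 241 normalized counts in Csf1r_het, 490, 47.4 and 83.1 in Csf2het, 239 and 116 in Dhet, and 491, 628 and 586 in WT. WT was tight, and Csf2het replicate 1 and WT replicate 1 differed by less than 1 normalized count, so that group only just cleared WT. The log2 fold changes of -0.79 in Csf1r_het (limma adjusted p = 0.657), -2.17 in Csf2het (limma adjusted p = 0.170) and -1.76 in Dhet (limma adjusted p = 0.525) did not pass. Without Csf2het replicate 1, the change in Csf2het was -3.15 and passed (limma adjusted p = 0.0494). C4a is a near-identical copy of C4b, was not analysed here and could share reads with it, so the level of C4b is uncertain.

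**Figure D2:**
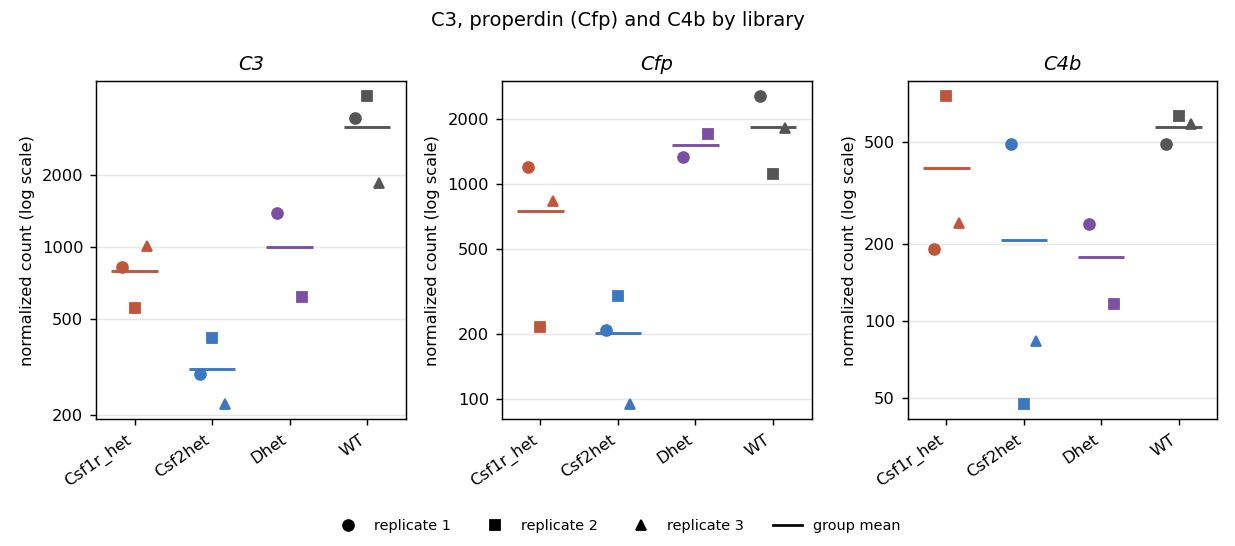
Normalized counts (vertical axes, log scale) of C3, Cfp and C4b in each library of Csf1r_het, Csf2het, Dhet and WT, with marker shapes for replicates and lines for group means. C3 is below the 3 WT libraries in all 8 other libraries, and Cfp in Csf2het is below the lowest WT library.

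The anaphylatoxin receptors showed no change that passed the test. C3ar1, the C3a receptor, had 2905, 2171 and 2570 normalized counts in Csf1r_het, 4306, 7112 and 5619 in Csf2het, 7141 and 2873 in Dhet, and 3548, 1370 and 4108 in WT. Csf2het lay above every WT library, with a mean 1.89 times that of WT, and Csf1r_het lay within the WT range. The log2 fold changes against WT were -0.10 in Csf1r_het (limma adjusted p = 0.934), 1.04 in Csf2het (limma adjusted p = 0.237) and 0.74 in Dhet (limma adjusted p = 0.624), with a 95% interval of 0.091 to 1.98 in Csf2het. Per 1000 counts of all 12 microglia markers, C3ar1 had 9.07 to 11.3 counts in Csf2het and 9.32 to 11.5 in WT. It had 5.91 to 9.88 in Csf1r_het and 7.20 to 14.6 in Dhet, and these ratios were not tested.

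C5ar1, the C5a receptor, had 1979, 1747 and 1537 normalized counts in Csf1r_het, 2538, 5144 and 2356 in Csf2het, 3382 and 4067 in Dhet, and 3866, 981 and 7185 in WT. The WT libraries alone spanned the whole range of the gene, from the lowest to the highest library, so every other group overlapped them. The log2 fold change was -0.79 in Csf1r_het (limma adjusted p = 0.518), 0.058 in Csf2het (limma adjusted p = 0.979) and 0.30 in Dhet (limma adjusted p = 0.905). Without WT replicate 2, the lowest library, C5ar1 was lower in Csf1r_het, by 1.59 on the log2 scale, and passed (limma adjusted p = 0.0382). C3ar1 lies on chromosome 6 (122847138 to 122856161) and C5ar1 on chromosome 7 (16246743 to 16259540).

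**Figure D3:**
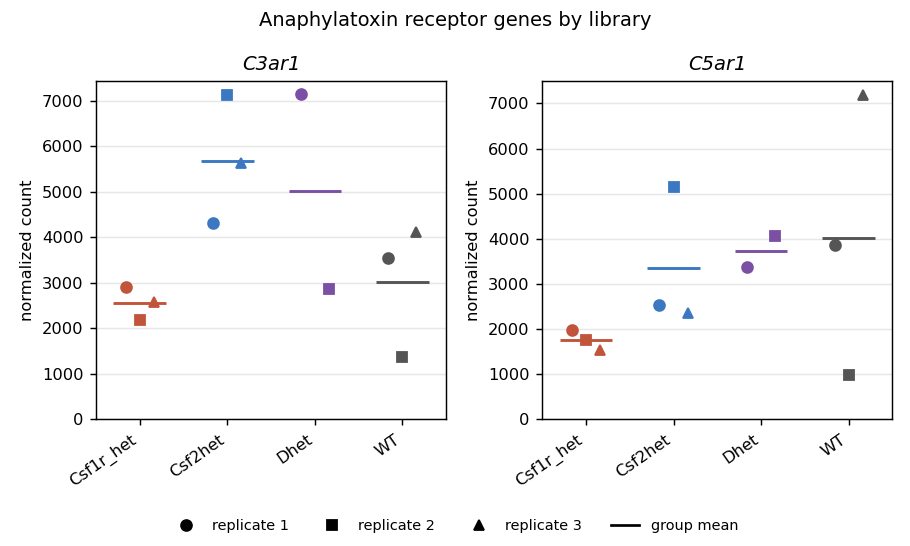
Normalized counts (vertical axes, linear from 0) of C3ar1 and C5ar1 in each library of Csf1r_het, Csf2het, Dhet and WT, with marker shapes for replicates and lines for group means. C3ar1 in Csf2het lies above all WT libraries, and the WT points of C5ar1 run from 981 to 7185.

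Counted together, 1 of the 8 genes was called in Csf1r_het against WT (C3, lower), 2 in Csf2het (C3 and Cfp, lower) and 0 in Dhet. Over all genes tested the called shares were 1.32%, 3.65% and 0.529% in these comparisons, for lower genes alone 0.885%, 2.84% and 0.499%, and for higher genes alone 0.431%, 0.809% and 0.0303%. At an unadjusted limma p under 0.05 the 8 genes gave 5, 7 and 1, and 16.2%, 17.3% and 10.05% of all genes tested passed. In Dhet DESeq2 called 1 of them (C3, adjusted p = 0.04997; 2.455% of all genes) and edgeR 0. By overlap of libraries, 3 genes lay above WT in Csf1r_het (8.61% of all genes tested did) and 1 below (12.8%), 4 lay above in Csf2het (11%) and 3 below (14.3%), and 1 lay above in Dhet (13.5%) and 2 below (12.6%). The 3 C1q chains share a locus and a protein, and the 3 comparisons share the WT libraries, so these counts are not independent.

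The double heterozygote did not differ from either single one at the adjusted threshold in any of the 8 genes. Against Csf1r_het, Dhet had higher Cfp and C5ar1 in both libraries, with log2 fold changes of 1.32 and 1.09 (2 of 8 genes above with no overlap, as were 18.5% of all genes tested, with 14.4% below). Against Csf2het, Dhet had higher C3 and Cfp, with log2 fold changes of 1.62 (limma adjusted p = 0.408) and 3.03 (limma adjusted p = 0.213), and C1qb and C1qc lay below Csf2het in both libraries. Genes above with no overlap made up 16.7% of those tested there and genes below 12.9%. limma called 0 of the 8 in both comparisons, in which it called 0.00756% and 0.0227% of all genes. At an unadjusted limma p under 0.05 the counts were 0 and 2, with 10.5% and 8.19% of all genes. DESeq2 called 0 and 1 (Cfp against Csf2het), with 0.791% and 1.26% of all genes, and edgeR 0 and 0.

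The interaction asks whether the change with loss of a Csf2 copy differed between Csf1r+/- and Csf1r wild-type mice, and 2 of the 8 genes passed it, against 1.85% of all genes tested (1.2% in the higher direction and 0.643% in the lower). For C3 it was 3.57 on the log2 scale (SE 0.65, limma adjusted p = 0.0193): Dhet differed from Csf1r_het by 0.26, while Csf2het differed from WT by -3.31. For Cfp it was 4.55 (SE 0.91, limma adjusted p = 0.0261), from 1.32 for Dhet against Csf1r_het and -3.23 for Csf2het against WT. The C1q chains had values of -1.89, -2.04 and -1.90 that did not pass (limma adjusted p from 0.201 to 0.233), although DESeq2 called C1qb (adjusted p = 0.02595) and C1qc (adjusted p = 0.0101) lower. Over all genes DESeq2 called 6.78% for the interaction. For C4b, C3ar1 and C5ar1 the interaction was 1.20, -0.20 and 1.03. The call for C3 was kept in 7 of 11 fits without a library and lost without WT replicate 1 (limma adjusted p = 0.0597), Csf2het replicate 1 (0.0536), Csf2het replicate 3 (0.0515) or Dhet replicate 1 (0.107). The call for Cfp was kept in 5 of the 11 and lost without WT replicate 1, Csf1r_het replicate 3, Csf2het replicate 1 or 3, or Dhet replicate 1 or 2 (limma adjusted p from 0.0568 to 0.107).

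**Figure D4:**
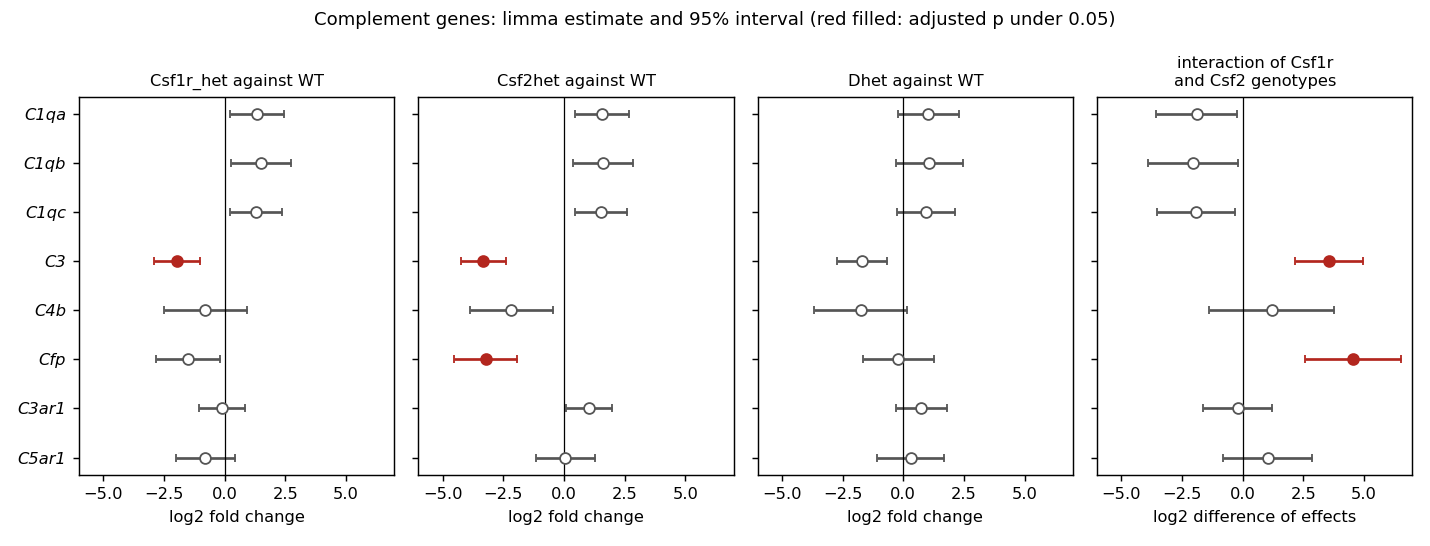
Log2 fold changes of the 8 genes (horizontal axis) in Csf1r_het, Csf2het and Dhet against WT, and in the last panel their interaction (log2 difference of effects), from limma, with bars for 95% intervals and filled red points for an adjusted p under 0.05. C3 is filled in Csf1r_het, Csf2het and the interaction, Cfp in Csf2het and the interaction, and the C1q chains have open points at positive values against WT and at negative values in the interaction.

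The single heterozygotes were also set against each other. Csf1r_het had higher C3 than Csf2het in every library (log2 fold change 1.36, SE 0.43) and lower C3ar1 and C5ar1 (-1.14 and -0.84), with no overlap. In limma 0 of the 8 passed after adjustment, and DESeq2 and edgeR called 0. An unadjusted limma p under 0.05 was found for 3 (C3, C3ar1 and Cfp) and for 4.48% of all genes. Cfp had a log2 fold change of 1.71 with overlapping libraries, and C5ar1 had an unadjusted limma p of 0.160. Of all genes tested, 0.0227% were called, 5.98% lay above without overlap and 6.1% below.

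The summed monocyte markers were also lowest in Csf2het, as C3 and Cfp were. All 10 monocyte markers were lower in Csf2het than in WT and passed in limma, with a median log2 fold change of -2.72, and 1 of 10 passed as lower in Csf1r_het, where the median was -1.30, and 1 of 10 in Dhet, where it was -1.32. Over all genes tested limma called 2.84% lower in Csf2het, 0.885% in Csf1r_het and 0.499% in Dhet. Their sum was 56577 to 73276 normalized counts in Csf1r_het, 16608 to 24083 in Csf2het, 69532 to 79801 in Dhet and 92724 to 209993 in WT. Per 1000 counts of that sum, C3 had 9.90 to 13.9 counts in Csf1r_het, 10.1 to 17.9 in Csf2het, 8.93 to 17.3 in Dhet and 20.0 to 31.0 in WT. Relative to this sum C3 was still highest in WT, and the ranges of the 3 heterozygous groups overlapped. Cfp per 1000 counts was 3.82 to 19.7 in Csf1r_het, 4.32 to 12.7 in Csf2het, 16.6 to 24.4 in Dhet and 5.29 to 22.7 in WT, with overlap of all groups with WT. The sum leans on its most abundant genes, among them Plac8, Ly6c2 and Chil3. Ccr2 alone had 3626 to 4231 normalized counts in Csf1r_het, 515 to 950 in Csf2het, 2354 to 4307 in Dhet and 3765 to 15123 in WT. Relative to Ccr2 alone, C3 was not highest in WT. The highest WT library in this respect, replicate 3, had 1858 counts of C3 for 3765 of Ccr2. Csf2het replicate 1 (297 for 515) and Dhet replicate 1 (1384 for 2354) lay above it. The other libraries of Csf2het and Dhet did not, and Csf1r_het lay below all of WT. Other single markers were not set beside C3, and none of these relations was tested.

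Neutrophil markers, whose cells also make properdin, summed to 26596 to 447463 normalized counts in Csf1r_het, 113156 to 195822 in Csf2het, 674218 to 738162 in Dhet and 47274 to 794252 in WT. The interaction was positive for all 10 monocyte markers, 4 of which passed in limma, and for all 10 neutrophil markers, of which 0 passed. It was also positive for 10 of 11 immediate early genes tested, 3 of which passed. Over all genes tested 1.85% passed the interaction, and its median was 0.15. Immediate early genes, which tissue dissociation induces, summed to 11721 to 13875 normalized counts in Csf1r_het, 9559 to 17790 in Csf2het, 11404 to 37202 in Dhet and 25934 to 51333 in WT. The part of these markers in the values of C3 and Cfp was not tested.

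**Figure D5:**
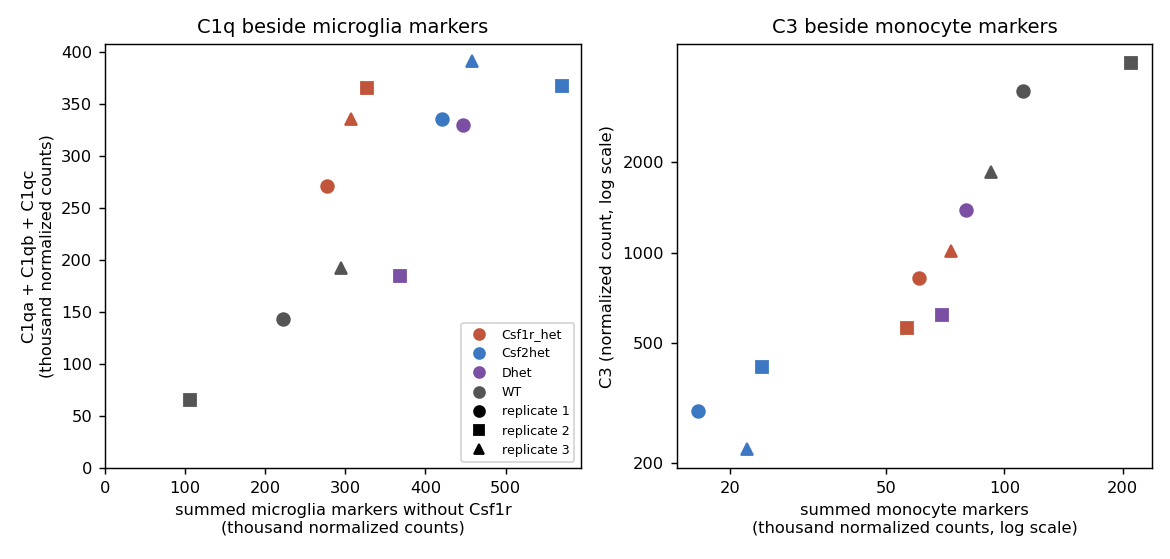
Left, summed C1q chains against summed microglia markers without Csf1r (both axes in units of 1000 normalized counts), right, C3 against summed monocyte markers (both axes on log scales), with 1 point per library coloured by Csf1r_het, Csf2het, Dhet and WT. The Csf1r_het points lie highest for their microglia marker sum, and C3 per count of the monocyte marker sum is highest in WT (20.0 to 31.0 per 1000).

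Of 59 further genes of the complement system, 22 were in the table and all 22 were tested. In Csf1r_het 0 were called higher and 1 lower, in Csf2het 1 higher and 2 lower, and in Dhet 0 (5 at an unadjusted limma p under 0.05, 1 with DESeq2 and 0 with edgeR). The called shares of all genes tested were 1.32%, 3.65% and 0.529%, and 10.05% had an unadjusted limma p under 0.05 in Dhet. The median log2 fold change of the list was -0.034, 0.25 and 0.13 in these comparisons, against -0.12, -0.025 and 0.021 for all genes tested. No gene of the terminal pathway was among those tested. The list and its grouping by role were drawn up with earlier results of these data known.

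Among receptors, Itgb2 was lower in Csf1r_het and Csf2het. Itgb2 encodes the beta chain that CR3 shares with other leukocyte integrins, and it averaged 5454 ± 990 normalized counts in Csf1r_het, 5791 ± 817 in Csf2het, 9316 ± 2150 in Dhet and 19711 ± 5606 in WT (SD, n = 3, 3, 2 and 3). It fell by 1.83 on the log2 scale in Csf1r_het (SE 0.31, limma adjusted p = 0.0191) and by 1.73 in Csf2het (SE 0.31, limma adjusted p = 0.00812). Its interaction was 2.50 (limma adjusted p = 0.0199), and edgeR and DESeq2 made the same 3 calls. Cd93, a surface protein once described as a C1q receptor, averaged 299 in Csf1r_het, 102 in Csf2het, 258 in Dhet and 876 in WT, and fell in Csf2het (log2 fold change -2.85, limma adjusted p = 0.0435).

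Among membrane regulators, Cd59a, which blocks the membrane attack complex, averaged 1575 ± 432 normalized counts in Csf1r_het, 2272 ± 470 in Csf2het, 1005 ± 391 in Dhet and 654 ± 316 in WT. It rose in Csf2het (log2 fold change 1.89, SE 0.41, limma adjusted p = 0.0229), with 1.34 in Csf1r_het (limma adjusted p = 0.131) and 0.68 in Dhet (limma adjusted p = 0.626). In the whole list of 22, edgeR made the same numbers of calls as limma in these comparisons, and DESeq2 called 3 higher and 1 lower in Csf1r_het and 2 higher and 4 lower in Csf2het. The DESeq2 shares over all genes there were 5.67% and 8.47%. Cr1l, a regulator of C3 convertases in rodents, had -0.14 in Csf1r_het, -0.35 in Csf2het and -0.087 in Dhet. The soluble regulator Clu had log2 fold changes against WT of 0.77 in Csf1r_het, 0.71 in Csf2het and 0.11 in Dhet. The initiator Fcnb had -0.31, -0.14 and 3.23 in the same order, and the initiator C1ra -1.42, 0.019 and 1.31. None of these values of Clu, Fcnb and C1ra passed, and the lowest limma adjusted p was 0.339, for Fcnb in Dhet. Cfb, the protease of the alternative C3 convertase, had log2 fold changes of -2.66 in Csf1r_het, -5.75 in Csf2het and -5.49 in Dhet (SE 1.63 to 1.83). None passed (limma adjusted p from 0.0749 to 0.450). Cfb averaged 98.9 ± 78.6 normalized counts in Csf1r_het, 21.7 ± 32.7 in Csf2het, 58.6 ± 82.8 in Dhet and 565 ± 307 in WT (SD). Its log2 values rest on low and uneven counts, with an SD above the mean in Csf2het and Dhet, so their size is uncertain. Sez6l2, the neural gene of the list, had 3.48, 3.06 and -0.84 without passing.

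The genes most like each member across the 11 libraries were found by Pearson's r of log2(normalized count + 1), as a description over libraries that share groups and depth. C1qb was closest to C1qc (r = 0.986), and C1qa was closest to C1qb (r = 0.973), followed by Cd9 (r = 0.971). Itm2b (r = 0.979) came next for C1qb and Sft2d1 (r = 0.980) for C1qc. C3 was closest to Cybb (r = 0.961), which encodes a chain of the phagocyte NADPH oxidase, and to Cytip (r = 0.957). Cfp was closest to Fam109b (r = 0.966), followed by Pqlc3 (r = 0.952) and Hp (r = 0.947), which encodes haptoglobin. C3ar1 was closest to Scamp2 (r = 0.960), C5ar1 to Dusp6 (r = 0.962) and C4b to Cnpy4 (r = 0.930). No C1q chain was among the 3 genes closest to C3, C4b, Cfp or either receptor.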

How the data were processed

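RNA of Tmem119+ cerebral microglia was sequenced in 11 libraries. The authors deposited a signal for each gene in each library, a count scaled by that library's size factor. The submitters' processing notes name kallisto 0.43.1, DESeq2 and the build mm10; the DESeq2 version and any filter on genes are not given in the sources used here. In each library 100% of values were whole multiples, within 0.02 reads, of a step worth 1 read, which gave the reads and the depth. The number of unused columns of samples was 0. Kallisto divides reads between near-identical transcripts, which could affect C4b.

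Groups came from the sample labels. The labels do not say that the replicates of a group were separate animals, although ages differed between replicates within Csf1r_het and within Dhet. In Csf2het and in WT all ages were the same. The p-values measure the spread between these samples, which may be technical in part. The 8 genes, the wider complement list, the marker lists and the tests were chosen with earlier results of these data known. The planned test for normalized values was limma (3.58.1, R 4.3.3) on log2(normalized count + 1), which can understate changes of low genes. Means of log2 values also give much weight to a library near 0. A single fit covered the 4 groups, with 13223 genes of mean at least 10 tested, 1516 left out, 7 residual and 5.90 prior degrees of freedom, and Benjamini-Hochberg adjustment at 0.05 within each of 7 contrasts. The fit was tested on simulated data. Alternatives were pseudocounts of 0.5 and 8, no filter, a mean of at least 50, median-centred libraries, DESeq2 1.42.0 and edgeR 4.0.16 on the recovered reads, only the groups compared, a replicate block, omission of the libraries of 24 months and of each library, and, chosen after seeing the data, joint omission of WT replicate 2 and Csf1r_het replicate 2. edgeR called 100 genes in Csf1r_het, 458 in Csf2het and 26 in Dhet against WT.

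Named genes were the 8, the called genes of the wider list or, where a role had none, up to 2 of the highest level, and the 3 genes most like each member. Ratios to marker sums, and Xist and Ddx3y, were chosen after their values were seen. Not every gene named by this rule is reported here. Coordinates are those of the deposited table. Sequences are from RefSeq.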

Additional observations from a re-analysis of the deposited data

Results flagged for a closer look

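The change of C3 with loss of a Csf2 copy differed between Csf1r+/- and Csf1r wild-type mice, with an interaction of 3.57 on the log2 scale (limma adjusted p = 0.0193). The change of Cfp differed in the same way, with an interaction of 4.55 (limma adjusted p = 0.0261). Neither call was made with the replicate block, and neither was kept in every fit that left out a library. Dhet, with 2 libraries, enters both values. Dhet replicate 2 was of 24 months and had 4.02 normalized counts of Xist and 717 of Ddx3y, unlike every other library. Cfp lies on chromosome X. The part of age or sex in these interactions was not tested.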

How the results depend on the processing

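Of the 8 genes, 1 was called in Csf1r_het against WT, 2 in Csf2het against WT, 0 in Dhet against WT or Csf2het and 2 for the interaction. In Csf1r_het the count was 0 with median-centred libraries, edgeR, only the groups compared or without the libraries of 24 months, and 3 with DESeq2. DESeq2 gave 5 in Csf2het, 1 in Dhet against WT, 1 in Dhet against Csf2het and 4 for the interaction. Without the libraries of 24 months the interaction gave 1. Without WT replicate 2 and Csf1r_het replicate 2 together, Dhet against Csf2het gave 1. Leaving out each library in turn gave 0 to 1 in Csf1r_het, 1 to 3 in Csf2het and 0 to 2 for the interaction. Over all genes, DESeq2 called 825 in Csf1r_het, 1232 in Csf2het and 986 for the interaction, against 174, 482 and 244 in limma. In Csf1r_het, median-centred libraries called 166 of all genes and edgeR 100. The fit of only the groups compared called 0 of all 13223 genes there, so none of the 8 could pass. Leaving out WT replicate 1 or Csf1r_het replicate 3 also called 0 of all genes in Csf1r_het.

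With the replicate block, Csf1r_het and the interaction gave 0 of the 8, and Csf2het kept its count of 2. Of all 13223 genes tested, that block called only 28 in Csf1r_het and 14 for the interaction, and 256 in Csf2het. Samples with the same number did not deviate together (0 of 15 pairs had a correlation over 0.1, range -0.21 to 0.062). Deviations were taken from group means, so those of the 2 Dhet libraries mirror each other and the pairs are not independent. These correlations gave no sign that the numbers pair the samples, but cannot exclude it.

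Values near 0 changed sign. C3ar1 in Csf1r_het against WT was 0.030 with median-centred libraries and 0.010 without 24 months, and C5ar1 was -0.20 (DESeq2), -0.22 (edgeR) and -0.75 (joint omission) in Csf2het and -0.093, -0.11 and -0.51 in Dhet. C4b in Dhet against Csf2het was -0.26 with DESeq2 and -0.27 with edgeR. Without 24 months, Dhet against Csf1r_het was 0.24 for C1qa, 0.16 for C1qb, 0.018 for C1qc and 0.15 for C4b, and C3ar1 was 0.36 in Dhet against Csf2het and 0.35 for the interaction, where joint omission gave 0.19. Leaving out a library gave -0.27 to 0.066 for C1qb in Csf1r_het against Csf2het, -0.59 to 0.20 for C3ar1 in Csf1r_het against WT, -0.75 to 0.69 for C5ar1 in Csf2het against WT, -0.51 to 0.93 for C5ar1 and -0.51 to 0.081 for Cfp in Dhet against WT, -0.83 to 0.23, -0.86 to 0.0064 and -0.32 to 0.83 for C1qa, C1qb and C3 in Dhet against Csf1r_het, -0.95 to 0.36 and -0.28 to 1.39 for C3ar1 and C4b in Dhet against Csf2het, and -0.85 to 0.46 for C3ar1 in the interaction. The cause was not tested. Median centring changed the median log2 fold change of all genes to 0.0056 from -0.12 in Csf1r_het against WT and to -0.092 from 0.15 in the interaction. Each value rests on at least 61 reads, and Dhet has 2 libraries.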
